A study of Arabidopsis thaliana with 8 samples.

Results

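Photosystems I and II are the membrane complexes of the chloroplast that turn absorbed light into electron flow. Each has a core, where charge is separated, and an antenna of chlorophyll-binding light-harvesting proteins. The antenna proteins (LHCA for photosystem I, LHCB for photosystem II) and the peripheral core subunits (PSA and PSB) described here are made from nuclear genes and imported into the plastid, and their transcripts are among the most abundant of green tissue. The proteins that bind the reaction-centre pigments are encoded in the plastid genome. A list of 43 nuclear loci was used: 6 LHCA, 15 LHCB, 12 PSA and 10 PSB genes, together 21 antenna and 22 core genes, 18 of photosystem I and 25 of photosystem II. All 43 loci had a probe named by them, and all 43 passed the filter on dim probes, among 20441 genes tested. Of 7 plastid-encoded subunits looked for beside them, 0 had a probe named by their locus, and they were not analysed here.

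The study set 4 samples of 35S:WIN1 seedlings against 4 vector control seedling samples of Arabidopsis thaliana, on 1-colour Agilent arrays. WIN1 is a transcription factor of the ERF family known for raising wax and cutin genes, and the genotype 35S:WIN1:NOS places it behind a viral promoter that is active in most plant cells. The sample titles name the reference plants vector control, and their genotype field reads wild type. Both groups were Columbia-0, 2 weeks old, sampled as whole seedlings and grown on MS agar with 1% sucrose at 23 °C in 16 h of light and 8 h of dark. Several seedlings from a plate made a sample. Nothing in the labels states that samples came from separate plates or lines, and the spread that the p-values rest on may therefore be technical. In such whole-seedling RNA, fewer green cells and less transcript per cell cannot be told apart. A level below is the log2 of a probe's processed signal relative to the 75th percentile of its array, and a difference is 35S:WIN1 minus vector control on that scale. Signals of different probes are not set against each other as levels.

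The WIN1 probe was far brighter on every 35S:WIN1 array, with levels of 5.62, 5.44, 4.50 and 3.85 there against -9.10, -6.07, -9.32 and -8.34 on the vector control arrays (limma adjusted p = 2.88e-05). It was well above background on 4 of 4 35S:WIN1 arrays and 1 of 4 vector control arrays, and with the dim values raised to the detection floor the fold was 3836. The arrays themselves differed. Their 75th percentile signals were 996.7, 1268.9, 2273.3 and 2490.3 in 35S:WIN1 replicates 1 to 4 and 1789.8 to 2353.9 in the vector control, so that 35S:WIN1 replicates 1 and 2 were the 2 dimmest arrays. Each slide held 1 group, and an effect of the slide cannot be told apart from that of the genotype. Scaling on the 8 spike-in probes in place of the 75th percentile moved the median of all genes by -1.64 and left 2.29% of the called genes on the higher side, against 42.7% with the 75th percentile, and the deposited table, which is not scaled between arrays, moved it by -0.40 with 30.2% higher. All differences below are therefore relative to the bulk of the genes on each array.

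The photosystem and light-harvesting genes were lower in 35S:WIN1 seedlings as a group. Of the 43 genes, 33 fell and 0 rose at an adjusted p of 0.05 in limma, against 20.2% of all genes tested that fell and 15.1% that rose. The median difference of the 43 genes was -0.69, beside -0.04 for all genes tested. The falls ranged from 1.32-fold for PSAF to 5.44-fold for LHCB4.3, with adjusted p-values of 0.00113 to 0.0391. A fall of at least 2-fold was called for 15 of the 43 genes and for 7.47% of all genes. All 35S:WIN1 arrays lay below all vector control arrays for 33 of the 43 genes and for 20.3% of all genes. Bright probes fell more often than others: among the brightest 10% of genes, which hold 34 of the 43, 29.4% were called lower and 12% higher, and the median difference was -0.12. The 10 genes that did not pass the test were LHCA1, LHCA4, the 5 LHCB1 genes, LHCB3, PSAG and PSBR.

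**Figure D1:**
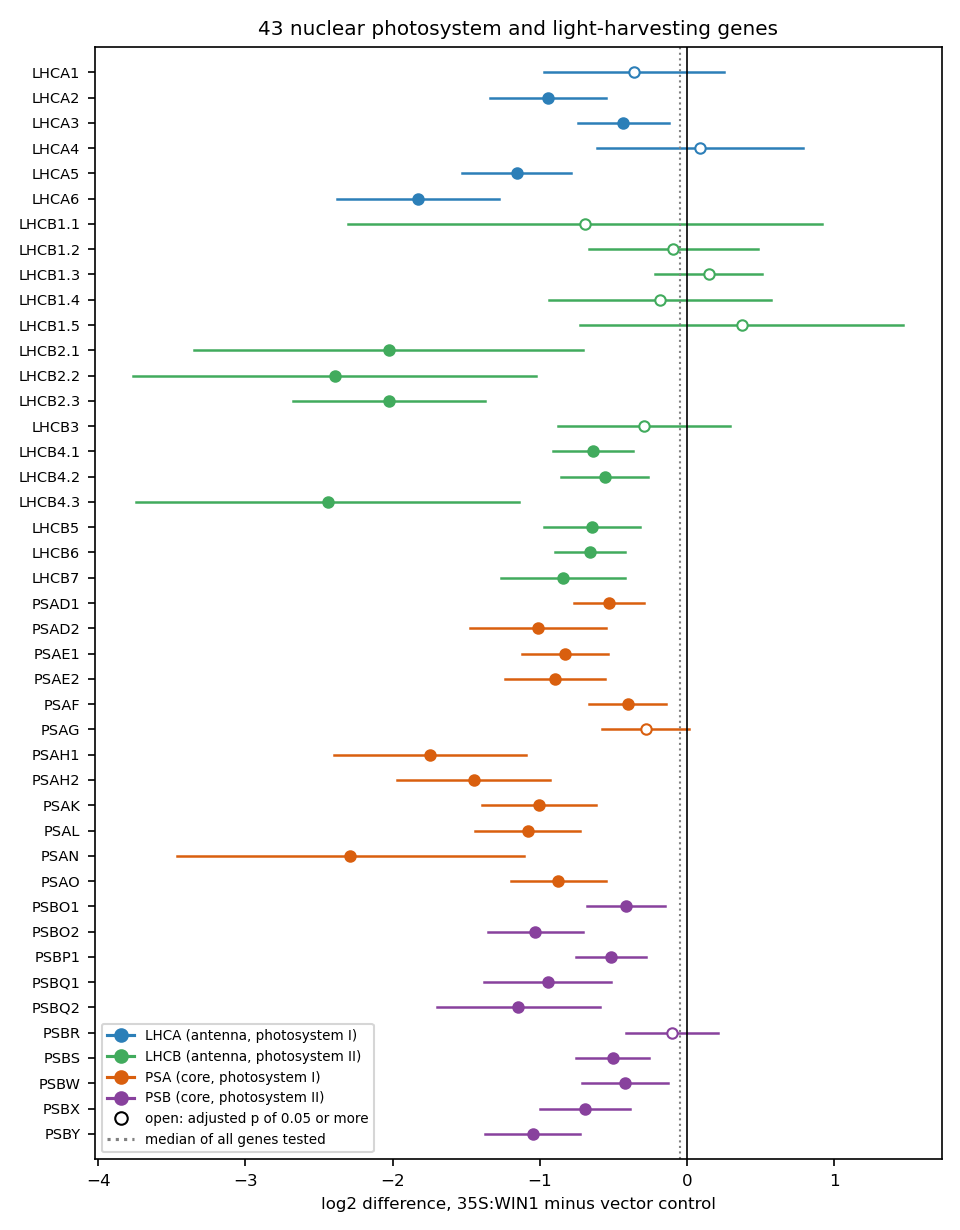
Difference of each of the 43 genes (log2, 35S:WIN1 minus vector control, n = 4 arrays each) with its 95% interval from limma; filled points passed an adjusted p of 0.05 and open points did not. The 33 filled points all lie left of zero, and the 5 LHCB1 genes straddle it.

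The antenna genes of photosystem I divided into those that fell and those that did not pass the test. LHCA1 (AT3G54890) to LHCA4 (AT3G47470) encode the main antenna proteins docked to the photosystem I core. LHCA5 (AT1G45474) and LHCA6 (AT1G19150) are minor members that link photosystem I to the chloroplast NADH dehydrogenase-like complex in Arabidopsis. LHCA6 fell most of the 6, with levels of 2.105, 2.295, 2.685 and 3.238 on the 35S:WIN1 arrays against 4.57, 4.39, 4.17 and 4.51 on the vector control arrays (difference -1.83, SE 0.24, adjusted p = 0.00113). LHCA5 levels were 1.23, 1.45, 1.39 and 1.85 in 35S:WIN1 against 2.91, 2.68, 2.48 and 2.49 in the control (-1.16, SE 0.16, adjusted p = 0.00149). For both minor genes all 35S:WIN1 arrays lay below all control arrays, and the other LHCA5 probe gave a difference of -1.22.

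LHCA2 (AT3G61470) was the most reduced of the 4 main photosystem I antenna genes, at 4.12, 4.48, 4.58 and 4.90 in 35S:WIN1 and 5.70, 5.39, 5.42 and 5.34 in the control (-0.94, SE 0.17, adjusted p = 0.00458). LHCA3 (AT1G61520) differed by -0.43 (SE 0.14, adjusted p = 0.0391). LHCA4 levels were 4.54, 4.25, 3.51 and 3.38 in 35S:WIN1 against 4.33, 3.76, 3.86 and 3.38 in the control, a difference of 0.09 with a 95% interval of -0.61 to 0.79. The LHCA4 groups overlapped, with the highest values on the 2 dimmest 35S:WIN1 arrays, and its sign turned to -0.39 without those arrays and to -1.54 under spike-in scaling. LHCA1 differed by -0.36 with an interval of -0.97 to 0.25, and it passed the test at -0.78 without the 2 dimmest arrays (adjusted p = 0.0499).

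Within the photosystem II antenna, the calls differed among the genes of the trimer-forming proteins. LHCB1, LHCB2 and LHCB3 (AT5G54270) build the trimers that carry much of the chlorophyll of the thylakoid, and LHCB1 and LHCB2 are the ones phosphorylated in state transitions. All 3 LHCB2 genes fell, with a median difference of -2.03. None of the 5 LHCB1 genes passed the test in either direction, and their median was -0.09. LHCB3 differed by -0.29 (adjusted p = 0.401, 95% interval -0.87 to 0.29).

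LHCB2.3 (AT3G27690) had levels of -1.03, -2.13, -1.82 and -1.02 in 35S:WIN1 seedlings against 0.79, 0.26, 0.26 and 0.78 in vector control seedlings (difference -2.02, SE 0.28, adjusted p = 0.00153). LHCB2.2 (AT2G05070) had -5.79, -7.79, -8.05 and -5.33 in 35S:WIN1 against -4.28, -4.40, -4.46 and -4.26 in the control (-2.39, SE 0.60, adjusted p = 0.0164). LHCB2.1 (AT2G05100) had -5.09, -7.55, -6.95 and -4.98 in 35S:WIN1 against -3.90, -4.05, -4.55 and -3.95 in the control (-2.03, SE 0.58, adjusted p = 0.0274). The groups did not overlap for any of the 3 genes, but only LHCB2.3 rested on signals well above background on all 8 arrays. LHCB2.2 was above background on 2 of 4 35S:WIN1 arrays and LHCB2.1 on 3 of 4, and with values raised to the floor their falls were 3.92-fold and 3.54-fold. Both lost the call under another background correction (normexp, -0.31 and -0.36). LHCB2.1 and LHCB2.2 are neighbours in the reference annotation with 0 protein-coding genes between them, and signal of such close copies may be shared between their probes.

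The LHCB1 genes varied more among the 35S:WIN1 arrays than between the groups. LHCB1.5 (AT2G34420) levels were 7.13, 6.97, 5.72 and 4.86 in 35S:WIN1 and 5.81, 5.46, 6.02 and 5.89 in the control (0.37, 95% interval -0.72 to 1.47). LHCB1.1 (AT1G29920) levels were 3.49, 1.47, -0.02 and 0.65 in 35S:WIN1 and 2.58, 1.43, 2.59 and 1.77 in the control (-0.69, interval -2.30 to 0.92). LHCB1.2 (AT1G29910), the member with the largest p of the LHCB genes, had 6.68, 6.58, 6.10 and 5.80 in 35S:WIN1 against 6.79, 6.31, 6.53 and 5.91 in the control (-0.09, interval -0.67 to 0.48). For LHCB1.1, LHCB1.2, LHCB1.4 (AT2G34430) and LHCB1.5 the 2 dimmest 35S:WIN1 arrays read higher on average than the other 2. LHCB1.3 (AT1G29930) differed by 0.15 (interval -0.22 to 0.51) and LHCB1.4 by -0.18 (interval -0.93 to 0.57). Without the 2 dimmest arrays LHCB1.1 was called lower at -1.77 (adjusted p = 0.0284) and LHCB1.5 turned to -0.51 without passing the test, and under spike-in scaling all 5 were called lower, between -2.33 and -1.26. LHCB1.1, LHCB1.2 and LHCB1.3 lie next to each other in the annotation, as do LHCB1.4 and LHCB1.5, so these probes also face close copies.

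The monomeric antenna proteins LHCB4, LHCB5 (AT4G10340) and LHCB6 (AT1G15820) connect the trimers to the photosystem II core, and all 5 of their genes fell. LHCB6 levels were 6.17, 6.30, 5.98 and 6.22 in 35S:WIN1 against 6.95, 6.79, 6.77 and 6.79 in the control (difference -0.66, SE 0.10, adjusted p = 0.00245). LHCB4.1 (AT5G01530) had 5.31, 5.36, 5.21 and 5.55 in 35S:WIN1 against 6.21, 5.94, 5.95 and 5.87 in the control (-0.64, SE 0.12, adjusted p = 0.00504). LHCB4.2 (AT3G08940) had 3.90, 4.05, 3.72 and 4.11 against 4.74, 4.34, 4.47 and 4.47 in the control (-0.56), and LHCB5 differed by -0.64. The falls of these 4 genes were 1.47-fold to 1.58-fold. Without the 2 dimmest arrays the calls of LHCB4.2 and LHCB5 were lost (adjusted p = 0.0574 and 0.0629).

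LHCB4.3 (AT2G40100), a divergent and weakly expressed relative of LHCB4.1 and LHCB4.2, fell further and less evenly. Its levels were -0.98, -0.56, 0.06 and 1.86 in 35S:WIN1 against 2.51, 2.78, 1.97 and 2.88 in the control (-2.44, SE 0.57, adjusted p = 0.0124). The fourth 35S:WIN1 array came close to the lowest control array, and without it the difference was -3.03, while without the 2 dimmest arrays the call was lost at -1.58 (adjusted p = 0.0745). LHCB7 (AT1G76570), an antenna-like gene of low expression, had -1.17, -1.06, -0.75 and -0.36 in 35S:WIN1 against 0.14, -0.13, -0.08 and 0.09 in the control (-0.84, SE 0.18, adjusted p = 0.00931).

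**Figure D2:**
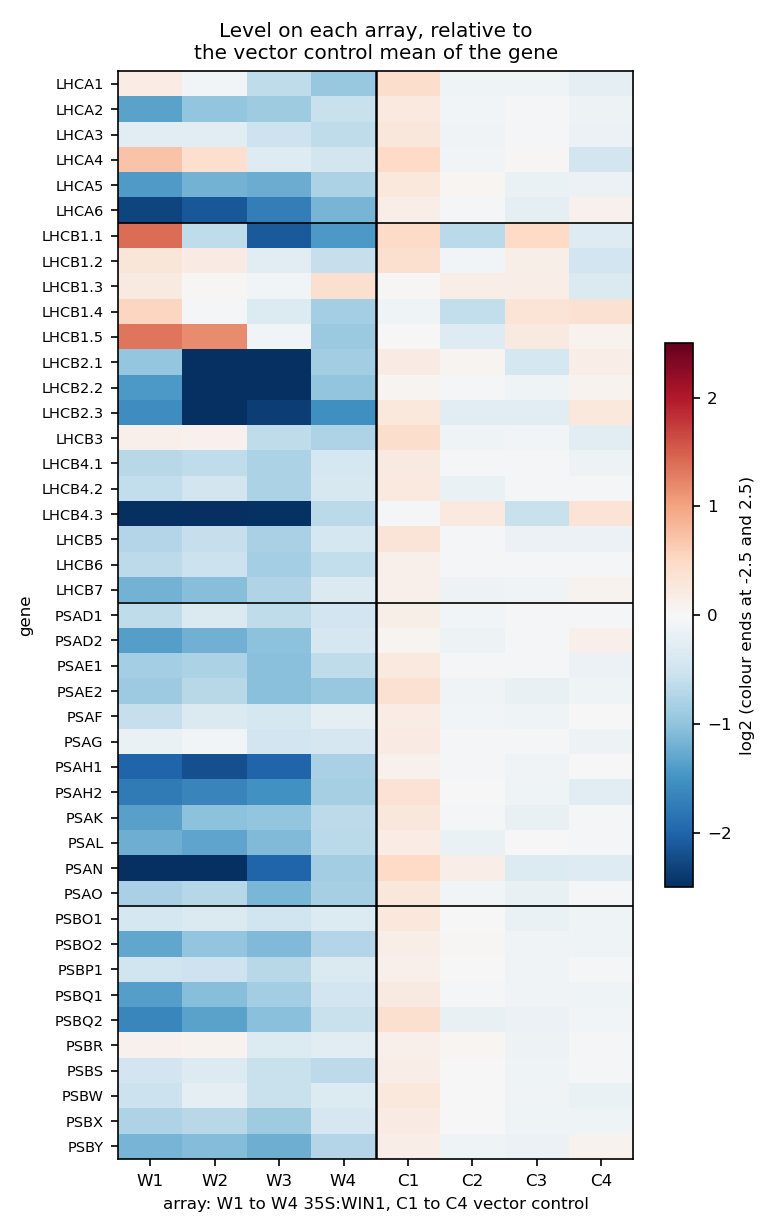
Level of each gene on each array (log2) relative to the gene's mean over the vector control arrays; columns W1 to W4 are 35S:WIN1 replicates and C1 to C4 vector control replicates, and the colour ends at -2.5 and 2.5. LHCB2, LHCB4.3 and PSAN are among the rows with colour at the blue end, and LHCB1.1 and LHCB1.5 run between red and blue within the 35S:WIN1 columns.

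Among the nuclear core subunits of photosystem I, 11 of 12 genes fell, with a median difference of -0.95. PSAD and PSAE sit on the stromal side where ferredoxin docks. PSAD1 (AT4G02770) had levels of 5.57, 5.83, 5.57 and 5.72 in 35S:WIN1 against 6.34, 6.13, 6.16 and 6.18 in the control (-0.53, SE 0.10, adjusted p = 0.00615). PSAD2 (AT1G03130), the other copy, had 2.302, 2.482, 2.652 and 3.264 in 35S:WIN1 against 3.74, 3.55, 3.63 and 3.82 in the control (-1.01, SE 0.20, adjusted p = 0.00656). PSAE1 (AT4G28750) had 4.62, 4.68, 4.42 and 4.83 in 35S:WIN1 against 5.70, 5.44, 5.41 and 5.32 in the control (-0.83, SE 0.13, adjusted p = 0.00226). Both PSAE copies fell by nearly the same amount, PSAE2 (AT2G20260) lying at 3.25, 3.46, 3.12 and 3.22 in 35S:WIN1 and at 4.54, 4.07, 3.97 and 4.04 in the control (-0.90, SE 0.15, adjusted p = 0.00307).

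The subunits PSAH, PSAL (AT4G12800) and PSAO (AT1G08380) form the side of photosystem I that binds mobile antenna trimers, and their genes all fell. PSAL had levels of 2.62, 2.51, 2.74 and 3.16 in 35S:WIN1 against 4.02, 3.67, 3.86 and 3.82 in the control (-1.08, SE 0.16, adjusted p = 0.00172). PSAH1 (AT3G16140) had 1.80, 1.60, 1.79 and 2.98 in 35S:WIN1 against 3.90, 3.76, 3.70 and 3.81 in the control (-1.75, SE 0.28, adjusted p = 0.00285). PSAH2 (AT1G52230) had 0.80, 0.92, 1.05 and 1.74 in 35S:WIN1 against 2.94, 2.59, 2.46 and 2.31 in the control (-1.45, SE 0.23, adjusted p = 0.00244). The fourth 35S:WIN1 array was the highest of its group for all 3 genes and still lay below the control arrays. PSAO fell by 0.87 on the log2 scale (adjusted p = 0.00284).

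PSAN (AT5G64040), a lumenal subunit at the plastocyanin docking site, was the most reduced core gene, a choice of example made after its values were seen. Its levels were 1.60, 2.22, 3.05 and 4.18 in 35S:WIN1 against 5.54, 5.22, 4.70 and 4.74 in the control (-2.29, SE 0.51, adjusted p = 0.0107). The 35S:WIN1 arrays spanned a wide range that ended under the control arrays. PSAF (AT1G31330), which also binds plastocyanin, differed by only -0.40 (SE 0.11, adjusted p = 0.0255). PSAK (AT1G30380), at the antenna side of the core, fell by 1.01 on the log2 scale (adjusted p = 0.00324). PSAG (AT1G55670), its relative, was the one PSA gene not called, with 6.46, 6.54, 6.13 and 6.20 in 35S:WIN1 against 6.81, 6.59, 6.57 and 6.49 in the control (-0.28, 95% interval -0.58 to 0.01, adjusted p = 0.124).

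Of the 10 nuclear core genes of photosystem II, 9 fell and PSBR (AT1G79040) did not pass the test, and the median difference was -0.61. PSBO, PSBP and PSBQ form the lumenal shield of the oxygen-evolving centre, and 5 of 5 of their genes fell. PSBO2 (AT3G50820) had levels of 4.67, 4.99, 4.88 and 5.25 in 35S:WIN1 against 6.15, 5.999, 5.88 and 5.88 in the control (-1.03, SE 0.14, adjusted p = 0.00131). PSBO1 (AT5G66570) had 6.18, 6.25, 6.11 and 6.27 in 35S:WIN1 against 6.87, 6.63, 6.46 and 6.51 in the control (-0.41, SE 0.12, adjusted p = 0.0251). The groups stood apart for both copies, by a wider margin for PSBO2. PSBQ1 (AT4G21280) had 4.33, 4.63, 4.84 and 5.22 in 35S:WIN1 against 5.92, 5.67, 5.62 and 5.60 in the control (-0.95, SE 0.19, adjusted p = 0.00653), and PSBQ2 (AT4G05180) had 2.64, 2.93, 3.23 and 3.72 against 4.673, 4.097, 4.140 and 4.202 in the control (-1.15, SE 0.24, adjusted p = 0.00815). PSBP1 (AT1G06680) fell by 0.52 on the log2 scale (adjusted p = 0.00649).

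Of the other 5 photosystem II core genes, PSBY, PSBX, PSBW and PSBS fell and PSBR did not pass the test. PSBY (AT1G67740) had levels of 3.80, 3.88, 3.74 and 4.24 in 35S:WIN1 against 5.14, 4.85, 4.81 and 5.05 in the control (-1.05, SE 0.14, adjusted p = 0.00124). PSBX (AT2G06520) had 4.99, 5.08, 4.89 and 5.36 in 35S:WIN1 against 5.98, 5.78, 5.66 and 5.67 in the control (-0.69, SE 0.13, adjusted p = 0.00561). PSBW (AT2G30570), which stabilises photosystem II supercomplexes, differed by -0.42 (adjusted p = 0.035). PSBS (AT1G44575), the sensor of lumen acidity that switches on heat dissipation, fell by 0.50 on the log2 scale (adjusted p = 0.00892). PSBR, which helps to attach PSBP, had 6.46, 6.43, 6.01 and 6.07 in 35S:WIN1 against 6.48, 6.39, 6.22 and 6.30 in the control, a difference of -0.10 with a 95% interval of -0.42 to 0.21.

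Without the 2 dimmest arrays, which leaves 2 of 35S:WIN1, calls were lost for 10 genes, LHCB2.1, LHCB2.2, LHCB4.2, LHCB4.3, LHCB5, LHCB7, PSAF, PSBO1, PSBQ2 and PSBW, with adjusted p-values of 0.05 to 0.124. Calls for 5 genes of modest change or low signal hung on single arrays. For LHCA3 the adjusted p was above 0.05 whenever 35S:WIN1 replicate 1 (0.0532), 3 (0.0963) or 4 (0.0691) was omitted, and likewise for control replicate 1 (0.0907), 2 (0.066) or 3 (0.0736). PSBW lost its call without 35S:WIN1 replicate 1 (0.0898) or 3 (0.0921), or without control replicate 1 (0.0834), 2 (0.0752) or 3 (0.0581). PSAF lost it without 35S:WIN1 replicate 1 (0.0674) or 3 (0.0657), or without control replicate 1 (0.0682) or 4 (0.0523). PSBO1 lost it without 35S:WIN1 replicate 1 (0.0609) or 3 (0.0692), or without control replicate 1 (0.0547) or 2 (0.061). LHCB2.1 lost it without 35S:WIN1 replicate 3 (0.0692), or without control replicate 1 (0.0681), 2 (0.0625) or 4 (0.0602). The sign of these 5 differences stayed negative each time, and the differences ranged over -0.48 to -0.34 for LHCA3 and PSBW, -0.47 to -0.33 for PSBO1, -0.46 to -0.34 for PSAF and -2.41 to -1.56 for LHCB2.1.

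Antenna and core were then set against each other. By counts, 13 of 21 antenna genes and 20 of 22 core genes fell, with median differences of -0.64 and -0.88. The comparison was made within each array, so that its scale cancels: each gene was taken relative to its control mean, and the median of the core genes was subtracted from the median of the antenna genes. Antenna minus core was 0.22, 0.17, 0.23 and -0.08 on the 35S:WIN1 arrays and 0.03, -0.04, 0.05 and -0.05 on the control arrays. The mean difference was 0.14 and the groups overlapped, because the fourth 35S:WIN1 array lay below every control array while the other 3 lay above. Without LHCA5, LHCA6, LHCB4.3 and LHCB7 the mean difference was 0.27, and with normexp background correction it was 0.26. Under quantile normalization it was 0.06. Leaving out single arrays gave 0.10 to 0.21, the highest without 35S:WIN1 replicate 4, and without the 2 dimmest arrays it was 0.08. Within photosystem I, LHCA minus PSA differed by 0.21, and within photosystem II, LHCB minus PSB by -0.07, each with overlapping groups.

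Photosystem I and photosystem II were set against each other in the same way. Of 18 photosystem I genes 15 fell, with a median of -0.92, and of 25 photosystem II genes 18 fell, with a median of -0.64. Photosystem I minus photosystem II was -0.41, -0.30, -0.25 and -0.08 on the 35S:WIN1 arrays and 0.04, -0.03, -0.01 and -0.06 on the control arrays, a mean difference of -0.25. All 35S:WIN1 arrays lay below all control arrays, the fourth only narrowly. The same contrast among core genes alone, PSA minus PSB, was added after the values were seen. It was -0.41, -0.30, -0.27 and -0.22 on the 35S:WIN1 arrays against 0.02, -0.05, 0.02 and 0.04 on the control arrays, a mean difference of -0.31 without overlap. Between the antenna sets, LHCA minus LHCB was -0.16, -0.05, 0.03 and -0.03 on the 35S:WIN1 arrays and 0.06, 0.01, -0.03 and -0.12 on the control arrays, a mean difference of -0.03 with overlapping groups. Leaving out single arrays kept photosystem I minus photosystem II and PSA minus PSB below zero, at -0.31 to -0.20 and at -0.34 to -0.27. Without the 2 dimmest arrays they were -0.15 and -0.25. Without PSBS, which is counted here with the core genes, PSA minus PSB was -0.24. Without LHCA5, LHCA6, LHCB4.3 and LHCB7, photosystem I minus photosystem II was -0.19. No p is given for these scores over listed genes.

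**Figure D3:**
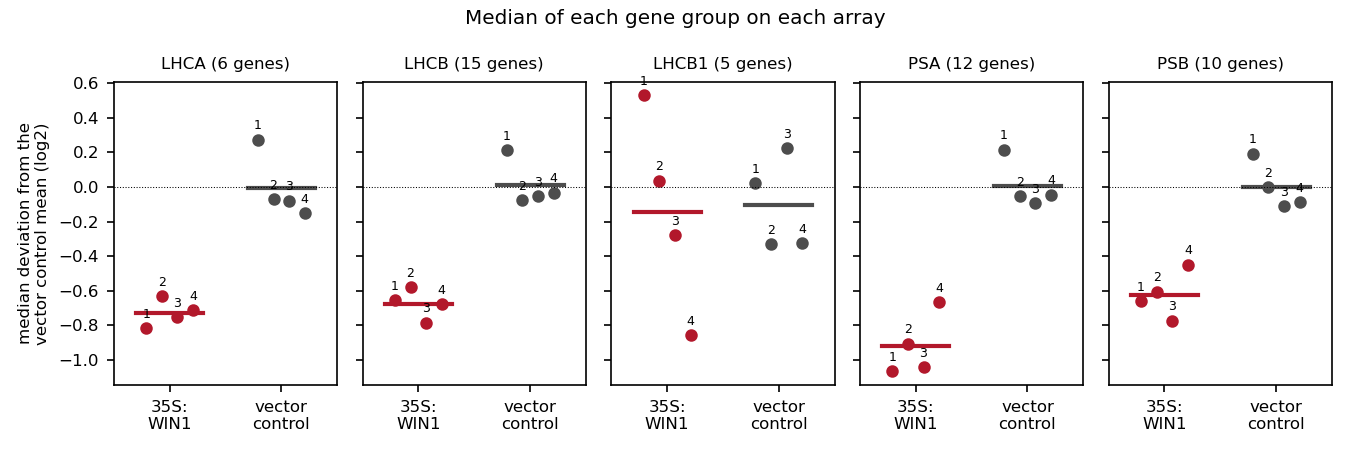
Median over the genes of each group of the log2 deviation from the vector control mean, on each array; numbers are replicates and bars are means of the 4 arrays. LHCA, LHCB, PSA and PSB medians of the 35S:WIN1 arrays lie between -1.07 and -0.45 and below all control arrays, while the LHCB1 medians overlap.

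The 6 pairs of copies listed for subunits were compared by the difference between copies on each array, with an exact two-sided permutation test over the 70 splits of the arrays, for which 0.0286 is the smallest p possible. For PSBO, every 35S:WIN1 array lay below every control array: PSBO2 minus PSBO1 was -1.50, -1.26, -1.23 and -1.02 in 35S:WIN1 and -0.72, -0.63, -0.57 and -0.63 in the control, a mean difference of -0.62 (exact permutation p = 0.0286, 0.171 after Benjamini-Hochberg adjustment over the 6 pairs). PSBQ2 minus PSBQ1 differed by -0.20 (exact p = 0.0571, adjusted 0.171). PSAD2 minus PSAD1 differed by -0.48, with 1 of 4 35S:WIN1 arrays inside the control range (exact p = 0.114, adjusted 0.229). None of the 6 pairs passed after adjustment, and a single pair at the smallest possible p could not, since it adjusts to 0.171. The other 3 differences were -0.07 for PSAE2 minus PSAE1, 0.30 for PSAH2 minus PSAH1 and 0.08 for LHCB4.2 minus LHCB4.1 (exact p = 0.571, 0.2 and 0.286). Under quantile normalization the PSBO, PSBQ and PSAD differences were -0.62, -0.32 and -0.58, each with an adjusted exact permutation p of 0.0571. The other 3 pairs then had an adjusted p of 0.206 or more.

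**Figure D4:**
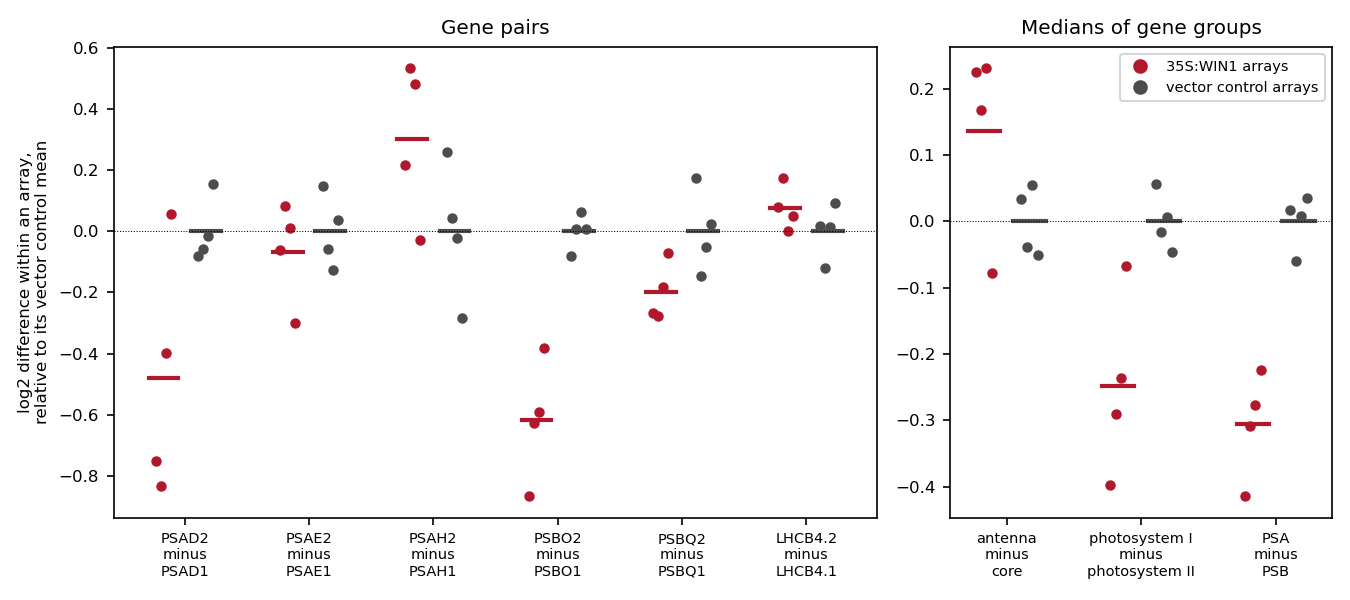
Differences within each array (log2, relative to the vector control mean) for 6 gene pairs (left) and 3 pairs of gene groups (right); points are arrays and bars are means of 4. PSBO2 minus PSBO1, photosystem I minus photosystem II and PSA minus PSB show 35S:WIN1 arrays below all control arrays, and antenna minus core overlaps.

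The genes differed in how they varied among the 35S:WIN1 arrays. Over the 10 genes that were not called, 9 read higher on the 2 dimmest 35S:WIN1 arrays than on the other 2, with a median difference of 0.83 and a range of -0.03 to 2.16. Over the 33 called genes, 11 did so, with a median of -0.15 and a range of -1.73 to 0.30. This spread enters the test that made the calls, so the contrast is a description. The level of the spike-in probes relative to the 75th percentile was 4.38, 4.29, 3.82 and 2.77 in 35S:WIN1 replicates 1 to 4. It was 2.78, 2.14, 2.25 and 1.55 in the control. Within 35S:WIN1 this level fell as the arrays grew brighter. It also differed between groups at like brightness: replicate 3 had a 75th percentile signal of 2273.3 in 35S:WIN1 and 2240.8 in the control. The part of the spike-in level in these differences was not tested.

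Other photosynthesis genes were taken from 7 lists of 62 loci, chosen with earlier results of these data known, of which 55 were tested and 40 fell while 4 rose, beside 20.2% and 15.1% of all genes. Under spike-in scaling 50 were called lower and 2 higher, where 83.9% of all genes were called lower. In the unscaled deposited values 25 were lower and 2 higher, where 10.2% of all genes were lower. Without the 2 dimmest arrays 27 were lower and 5 higher, where 11.6% of all genes were lower. All 8 electron transport genes fell, with a median difference of -0.99. Among them were PETC, the Rieske protein of the cytochrome complex (-1.38), the plastocyanin genes PETE1 (-1.10) and DRT112 (-0.65), and the ferredoxin gene FD1 (-0.88). FNR1, another of the 8, lost the call in some fits that left out a single array (limma adjusted p up to 0.0671). Of 3 nuclear ATP synthase genes 2 fell, ATPD (-1.50) and ATPC1 (-0.58). Genes for targeting, assembly and regulation of the antenna and photosystems fell in 15 of 16 cases, with a median of -0.83. These included the photosystem II assembly factors PSB27 (-1.13), PSB28 (-1.46) and PSB29 (-0.78) and the kinase gene STN8 (-0.73), whose product phosphorylates photosystem II core proteins. Of 7 genes of LHC-like proteins 6 fell, with a median of -1.21, among them ELIP1 (-2.00), an early light-induced protein, OHP (-1.43), OHP2 (-0.75) and LIL3:1 (-1.10).

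Among 13 regulators of photosynthesis genes, 8 fell and 1 rose. GNC, SIGE, GUN4 and GUN1, which are among those that fell, lost the call in some fits that left out a single array. Their limma adjusted p then reached 0.0605, 0.0605, 0.0684 and 0.0506. GLK1, named GPRI1 in the reference table, is a transcription factor that activates antenna and chlorophyll synthesis genes, and it had levels of 0.04, -0.06, 0.61 and 1.39 in 35S:WIN1 against 2.02, 1.64, 1.82 and 1.96 in the control (-1.36, SE 0.30, adjusted p = 0.0104). Its partner GLK2 had 1.68, 1.25, 1.38 and 1.87 against 1.71, 1.84, 1.85 and 2.08 in the control (-0.32, SE 0.16, adjusted p = 0.145). The GLK1 groups did not overlap and the GLK2 groups did. The plastid sigma factor genes SIG2 (-0.85) and SIGF (-0.65), which steer the plastid RNA polymerase to its promoters, fell. PIF3, which encodes a phytochrome-interacting factor that holds back photosynthesis genes in the dark, rose, with 1.85, 1.81, 1.61 and 1.70 in 35S:WIN1 against 0.23, 0.23, 0.53 and 0.34 in the control (1.41, SE 0.11, adjusted p = 0.000112).

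Of 8 genes of chlorophyll breakdown and leaf senescence, 3 rose and 1 fell, with a median of 0.50, beside 15.1% of all genes that rose and 20.2% that fell. NAC6, the senescence regulator also known as ORE1, rose by 3.45 on the log2 scale (adjusted p = 2.8e-05), and PPH, the pheophytin hydrolase of chlorophyll breakdown, by 0.73. SAG13, a senescence-associated gene, had levels of -3.53, -3.38, -2.63 and 0.89 in 35S:WIN1 against -5.74, -5.46, -4.63 and -5.64 in the control (3.20, SE 0.91, adjusted p = 0.0278). Replicate 4 carried much of this: without it the difference was 2.19 (adjusted p = 0.00176), and omitting 35S:WIN1 replicate 3 (0.05) ended the call, as did omitting control replicate 1 (0.0695), 2 (0.0631) or 4 (0.0611). NYC1, a chlorophyll b reductase gene, had -0.47, 0.20, 2.02 and 3.50 in 35S:WIN1 against 4.22, 4.01, 3.77 and 4.08 in the control (-2.71, SE 0.78, adjusted p = 0.0283). Its difference was -3.44 without 35S:WIN1 replicate 4 (adjusted p = 0.00204), and omitting 35S:WIN1 replicate 1 (0.0582), replicate 2 (0.0688) or any control array (0.0562 to 0.0684) ended its call.

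Markers of organs in whole seedlings were called at rates not far from those of all genes, of which 15.1% rose and 20.2% fell. All 11 root markers were measured, 3 rose (PLT2 of the root stem cell niche by 1.34, the root hair expansin gene EXPA7 by 0.97 and the endodermal regulator MYB36 by 0.85 on the log2 scale) and the Casparian strip gene CASP1 fell (-1.05), and their summed signal, on a linear scale with the 75th percentile as unit, was 7.68 to 10.9 in 35S:WIN1 and 8.39 to 9.02 in the control. Of 10 leaf and shoot regulators the polarity genes KAN (1.08) and YAB3 (0.44) rose and the leaf growth regulators TCP4 (-0.90) and TCP10 (-0.48) fell, with 7 of the 10 differences positive and a median of 0.14. The summed signal of the 10 was 17.6 to 21.8 in 35S:WIN1 against 20.9 to 29.6 in the control, and without TCP4 it was 11.1 to 16.0 in 35S:WIN1 and 11.7 to 15.4 in the control. Each of these marker calls apart from KAN and TCP4 was lost in 5 to 7 of the 8 fits that left out a single array, with adjusted p-values up to 0.115 (YAB3). The part of organ proportions in the fall of the photosystem genes was not tested.

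**Figure D5:**
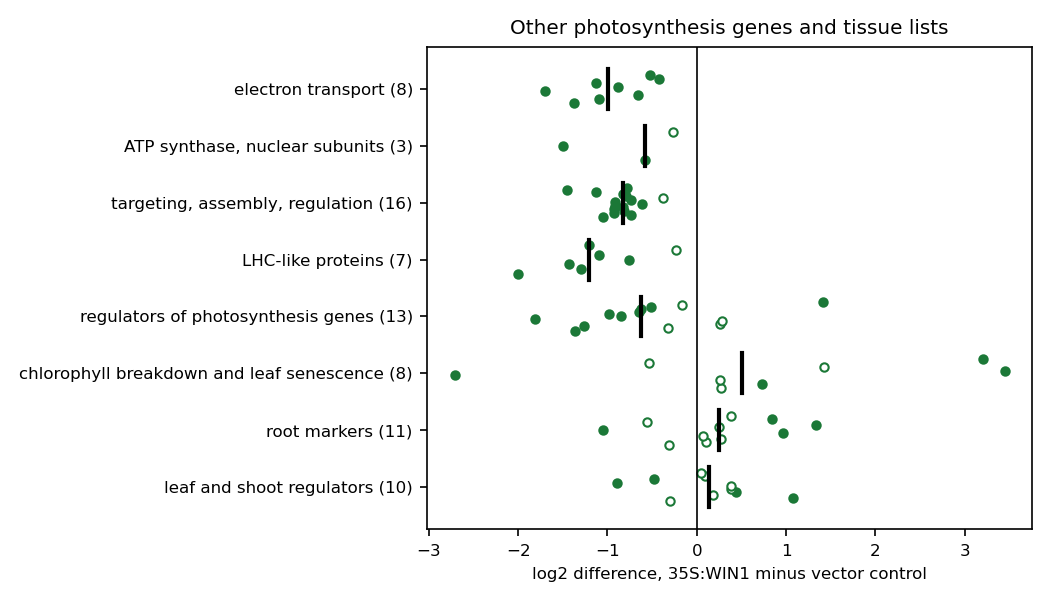
Difference of each gene (log2, 35S:WIN1 minus vector control) in 6 other photosynthesis and senescence lists and 2 tissue marker lists; filled points passed a limma adjusted p of 0.05, open points did not, and bars are list medians. Electron transport, assembly and LHC-like genes lie left of zero, and senescence and tissue genes fall on both sides.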

How the data were processed

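Total RNA (1 µg) of each seedling sample was labelled with Cy3 and hybridised to an array with 39102 spots. Agilent Feature Extraction 9.1.3.1 made the scanner files, per the submitters' processing notes. The processed signal in these files, per the file headers, is a background-subtracted intensity on a linear scale. The deposited series table holds the same intensity over a constant per slide (agreement within 0.1% for 99.96% or more of values). Its column medians were 0.0464, 0.0588, 0.114 and 0.125 in 35S:WIN1 and 0.0853, 0.111, 0.112 and 0.126 in the control, so it is linear and uncentred. The sources used here do not give the choice of its constants.

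From the processed signal in the scanner files, log2 values were taken relative to each array's 75th percentile over non-control spots. Outlier spots were left out, spots of a probe were averaged, and no member's probe was saturated. Between 58.9% and 65.2% of probes per array were well above background, and the number of arrays, 4 a group, limits the precision. Log2 profiles of arrays correlated at 0.948 to 0.987 within and 0.885 to 0.927 between groups. A gene was its brightest probe, kept if 4 or more of the 8 arrays read it well above background. A value below background has only a bound, and a fold was then also computed with each such array raised to the lowest signal well above background. Differences were tested with limma 3.58.1 in R 4.3.3 (tables read with the package data.table, version 1.17.8), two-sided, with Benjamini-Hochberg adjustment over all genes. The limma fit was tried on simulated arrays with known folds, and the permutation test on constructed values. The scaling and the filter on dim probes were not simulated.

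Loci were matched by the probes' locus names. Of the 20441 genes tested, 20324 were found in a reference table of TAIR10.1, used for names and gene order. No coordinates are printed since no build is named in the files. The members and lists were chosen with earlier results of these data known. Named members were, in each family, the 3 with the smallest p and the 1 with the largest, the copies of 6 pairs, LHCA5, LHCA6, LHCB4.3 and LHCB7; from each other list up to 4 called genes of smallest p, with GLK1 and GLK2. Other members named with values, among them LHCB1.1, LHCB1.5, LHCB2.1, LHCB2.2 and PSAN, were chosen after their values were seen. Alternatives were other scalings, normexp (offset 50, on the median spot and background signals, since the files used hold no mean signal), filters on dim probes, variance models, a replicate block and left-out arrays.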

Additional observations from a re-analysis of the deposited data

Results flagged for a closer look

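Single arrays stood apart from the other 3 of their group in 8 of 122 groups of values looked at (Dixon's criterion at 95%), and chance alone gives about 1 in 20. Vector control replicate 1 read high in 7 of these 8. Of these 7, 5 are medians of overlapping gene sets, so they show the same shift repeatedly. Its LHCB6 level was 6.95 against 6.77 to 6.79 on the other control arrays, and its PSAE2 level was 4.54 against 3.97 to 4.07. Its median deviation was 0.22 over the 43 genes (others -0.09 to -0.05), 0.21 over LHCB (-0.08 to -0.03), 0.22 over PSA (-0.09 to -0.04), 0.25 over photosystem I genes (-0.12 to -0.07) and 0.21 over photosystem II genes (-0.09 to -0.04). Without that array 28 of the 43 genes were called lower. For PSAH1, 35S:WIN1 replicate 4 was at 2.98 against 1.60 to 1.80 on the other 35S:WIN1 arrays.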

How the results depend on the processing

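The count of 33 genes lower and 0 higher became 29 under quantile normalization or median centring. It was 31 with normexp or with no filter on dim probes. With detection required on all 8 arrays it was also 31, but LHCB2.1 and LHCB2.2 were then not tested. Without the 2 dimmest arrays 25 genes were lower, and leaving out single arrays gave 28 to 33. Spike-in scaling gave 43 and the unscaled deposited values 20. The count of genes higher was 0 each time. Spike-in scaling shifted the medians to -2.33 (all members), -2.28 (antenna and photosystem II), -2.52 (core) and -2.55 (photosystem I), left 2 related genes higher, and turned LHCA4 (-1.54), LHCB1.3 (-1.49) and LHCB1.5 (-1.26). The deposited values gave -1.09, -1.04, -1.28 and -1.32 for the same medians, 25 related genes lower and 2 higher, and turned LHCA4 (-0.31), LHCB1.3 (-0.25) and LHCB1.5 (-0.0256). Under quantile normalization the antenna and photosystem II medians were -0.44, and LHCB1.2 (0.0472) and PSBR (0.0349) turned. Without the 2 dimmest arrays LHCA4 (-0.39) and LHCB1.5 (-0.51) turned. Array weights gave a median of -0.83. The cause of these shifts was not tested. Leaving out single arrays gave medians of -0.84 to -0.62 (members), -0.68 to -0.53 (antenna, photosystem II), -0.95 to -0.77 (core) and -0.98 to -0.82 (photosystem I), and crossed zero for PSAE2 minus PSAE1 (-0.12 to 0.0109), LHCA4 (-0.12 to 0.27), LHCB1.2 (-0.25 to 0.0717) and LHCB1.4 (-0.42 to 0.0423). The share of all genes called lower ran from 10.2% (deposited) to 83.9% (spike-in).

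With the replicate number as a block, 30 of the 43 genes were lower, PSAF, PSBO1 and PSBW losing the call. Same-numbered arrays correlated at -0.04 to 0.14 in their deviations, and only replicate 3 matched its own number best. These few weak correlations show no pairing by number but cannot exclude one. The 75th percentile signal rose with the replicate number in both groups. Weak signal limits LHCB2.1 and LHCB2.2 alone among the members.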
